A study of Mus musculus with 6 samples.

Results

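Aldehyde dehydrogenases use NAD or NADP to oxidise aldehydes to acids (or to CoA esters), and each enzyme of the family serves different substrates, among them lipid peroxidation products, retinaldehyde, folate and amino acid intermediates. In the nasal lining they belong to the enzymes that handle inhaled and metabolic aldehydes, and Aldh1a1 and Aldh1a7 are known there from supporting cells and glands. The family was followed in cells sorted from mouse olfactory epithelium through 10 genes, Aldh3a1, Aldh3a2, Aldh1a1, Aldh1a3, Aldh1a7, Aldh1l1, Aldh2, Aldh6a1, Aldh8a1 and Aldh9a1, of the 16399 genes measured. The genes were taken by platform symbol, which gave 19 probe sets, and all 19 passed the filter on low intensity. The 10 genes had been chosen from differences already seen between the same sorts, so their values are given as a description, without p-values.

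The olfactory epithelium of CD1 mice was dissociated and its cells were separated on a flow sorter by an ICAM1 antibody that carries a fluorescent dye. ICAM1, also called CD54, is an adhesion protein of the cell surface. The groups were 3 ICAM1-positive sorts and 3 ICAM1-negative sorts, 1 of each from 3 separate litters, taken at postnatal days 21, 22 and 24. The labels name no genotype or treatment beyond the strain, and age cannot be told apart from litter. Each sort was amplified in 2 rounds and hybridised to its own Affymetrix array, and intensities are in arbitrary scaled units.

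Icam1 checked the labels, with intensities of 7246.5, 6817.2 and 6857.1 in ICAM1-positive sorts, against 13.0, 16.1 and 33.2 in ICAM1-negative sorts. The free-text sample descriptions name the opposite populations, and the titles were followed. The median intensity of an array lay between 87.9 and 102.8. Of the 12 horizontal basal cell markers, genes of the quiescent stem cells of this tissue, 12 were higher in ICAM1-positive sorts, and their summed intensity was 112428 to 115156, against 4855 to 5251 in ICAM1-negative sorts. Icam1 is 1 of the 12 and its direction was fixed by the sort, and without it 11 of 11 were higher, with sums of 105611 to 107928 in ICAM1-positive and 4842 to 5235 in ICAM1-negative sorts. Markers of other cell types differed as well, where 20.6% of all genes were higher and 20.8% lower past the threshold given below. Of 15 macrophage markers 12 were higher, with sums of 20108 to 25651 in ICAM1-positive and 1520 to 1897 in ICAM1-negative sorts, and C1qa, a complement gene of macrophages, was at least 8.89-fold higher. Of 13 sustentacular (supporting) cell markers 8 were higher, with sums of 113193 to 121937 against 30961 to 48855. The other 5 did not pass, with log2 differences of -0.84 (Sult1c1), -0.69 (Cyp1a2), -0.42 (Muc2), -0.29 (Cyp2g1) and 0.39 (Gpx6), so this list was split. Of 9 Bowman gland markers 5 were higher, with sums of 41466 to 46775 against 13839 to 20532. The other 4 did not pass, at -2.47 (Dmbt1), -2.23 (Obp2a), -1.13 (Sox10) and 0.34 (Muc5b). Low signal limits these values, as Dmbt1 lay below the array median on every array and Obp2a above it only on ICAM1-negative array 1 (445.5). With values under the array median set to it, Obp2a came to -0.71, Sox10 to -0.33 and Muc5b to 0.37. Markers of olfactory neurons were lower, 9 of 9 for mature neurons (6190 to 12120 in ICAM1-positive and 92797 to 106292 in ICAM1-negative sorts) and 12 of 12 for immature neurons and precursors (5738 to 8546 against 63529 to 78146). Of 9 ciliated cell markers 8 were lower (846 to 1230 against 9317 to 12749) and of 10 microvillar and tuft cell markers 6 were lower (1108 to 1836 against 2045 to 5567). Endothelial markers were low in both, with 1 of 10 higher (654 to 751 against 482 to 608). Fibroblast markers (3890 to 6101 against 2194 to 4269) and ensheathing glia markers (1944 to 2359 against 1541 to 2084) were split, with 2 higher and 2 lower of 10 and of 7. Nothing is read from the endothelial, fibroblast and glia counts, which lie near or below the shares over all genes. None of these markers was listed at 0. The part these cell types have in the values below was not tested, and in sorted bulk RNA fewer cells of a type and less RNA per cell cannot be told apart.

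Promoter sequences were taken from RefSeq (GRCm38.p6, 250 bases before to 50 after the start site), and likeness between them was not tested. The set of RefSeq promoters used here held 9 windows for 7 of the genes, Aldh9a1, Aldh1l1, Aldh8a1, Aldh3a2, Aldh6a1, Aldh1a1 and Aldh1a7. Aldh3a1, Aldh1a3 and Aldh2 had no window in this set and are named only. The windows of 3 genes that were higher in ICAM1-positive sorts and of Aldh8a1, which was lower, are printed 5′ to 3′ on the strand of the gene. They lie at chr6:90550543-90550842 (plus strand), chr12:84450975-84451274 (minus strand, the first of the 2 windows of this gene), chr1:167349741-167350040 (plus strand) and chr10:21377050-21377349 (plus strand). Capitals mark matches, on either strand, to the TATA box TATAAA, the CCAAT box CCAAT, the GC box GGGCGG, the core of the aryl hydrocarbon receptor element GCGTG and the antioxidant response element TGACNNNGC.
Aldh1l1: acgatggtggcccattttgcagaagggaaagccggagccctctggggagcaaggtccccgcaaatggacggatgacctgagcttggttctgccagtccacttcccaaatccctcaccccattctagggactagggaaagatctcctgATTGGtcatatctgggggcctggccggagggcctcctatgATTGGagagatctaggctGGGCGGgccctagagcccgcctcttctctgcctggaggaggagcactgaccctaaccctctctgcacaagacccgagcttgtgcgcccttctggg
Aldh6a1: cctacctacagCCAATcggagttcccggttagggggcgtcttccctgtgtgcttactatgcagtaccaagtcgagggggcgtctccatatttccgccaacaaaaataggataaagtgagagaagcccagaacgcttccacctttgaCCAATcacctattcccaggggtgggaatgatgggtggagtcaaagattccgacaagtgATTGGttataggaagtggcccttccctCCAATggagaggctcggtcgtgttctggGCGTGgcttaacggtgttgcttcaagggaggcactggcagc
Aldh9a1: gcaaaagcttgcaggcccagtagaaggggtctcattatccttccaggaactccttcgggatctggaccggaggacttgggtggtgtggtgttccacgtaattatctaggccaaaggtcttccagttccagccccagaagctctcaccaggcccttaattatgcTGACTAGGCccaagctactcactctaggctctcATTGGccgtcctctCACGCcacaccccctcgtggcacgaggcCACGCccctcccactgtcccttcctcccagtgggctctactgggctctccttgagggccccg
Aldh8a1: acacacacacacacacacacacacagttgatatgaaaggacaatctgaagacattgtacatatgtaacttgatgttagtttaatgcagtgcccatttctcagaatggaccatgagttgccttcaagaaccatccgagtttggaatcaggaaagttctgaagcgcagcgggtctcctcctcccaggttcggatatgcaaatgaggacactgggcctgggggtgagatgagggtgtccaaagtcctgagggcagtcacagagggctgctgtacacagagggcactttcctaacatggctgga

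Aldh1l1 had 2 CCAAT matches and 1 GC box. Aldh6a1 had 4 CCAAT matches and 1 GCGTG. Aldh9a1 had 1 CCAAT, 2 GCGTG and 1 antioxidant response element match, and Aldh8a1 had none of the 5 motifs. None of these 4 windows held TATAAA. Of the windows not printed, that of Aldh3a2 had 1 CCAAT, 1 GC box and 1 GCGTG. The window of Aldh1a7 had 1 TATAAA and 2 CCAAT. The first window of Aldh1a1 also had none of the 5 motifs, and the second windows of Aldh1a1 and Aldh6a1 had 2 CCAAT each. Among 32851 RefSeq promoter windows of the same length, TATAAA was found in 13.6%, CCAAT in 37.4%, GGGCGG in 35.7%, GCGTG in 32.4% and TGACNNNGC in 12.4%. CpG dinucleotides numbered 9 in Aldh1l1, 12 in the first and 4 in the second window of Aldh6a1, 9 in Aldh9a1, 21 in Aldh3a2 and 4 in Aldh8a1, against a median of 7 over all windows. The second window of Aldh6a1, a gene that was higher, thus held as many CpG as that of Aldh8a1, which was lower. Aldh1a1 and Aldh1a7, both on chromosome 19, had 3 and 1 CpG in the windows of Aldh1a1 and 1 in that of Aldh1a7. A match is a description of the letters, and no match draws nothing about a factor.

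Across the family, 6 of the 10 genes lay past the threshold as higher in ICAM1-positive sorts, 1 as lower and 3 on neither side, with a median log2 difference of 1.64, against -0.06 over all genes. The threshold was an adjusted p of 0.05 in limma, and 41.4% of all genes lay past it, 20.6% as higher and 20.8% as lower. Counted as probe sets, 12 of the 19 were higher and 1 lower, where 34.9% of all probe sets lay past the threshold. On all 3 arrays the ICAM1-positive sorts were above the ICAM1-negative ones for 6 genes and below them for 2, and 2 genes overlapped, where 27.8% of all genes were separated upward and 30.1% downward. Since the genes were chosen on this contrast, nothing is read from these counts. With litter as a paired block the counts were 6 higher and 0 lower, because Aldh8a1 no longer passed. Differences below are log2 ICAM1-positive minus ICAM1-negative, with the standard error of the fit, and means carry the SD of 3 arrays.

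**Figure D1:**
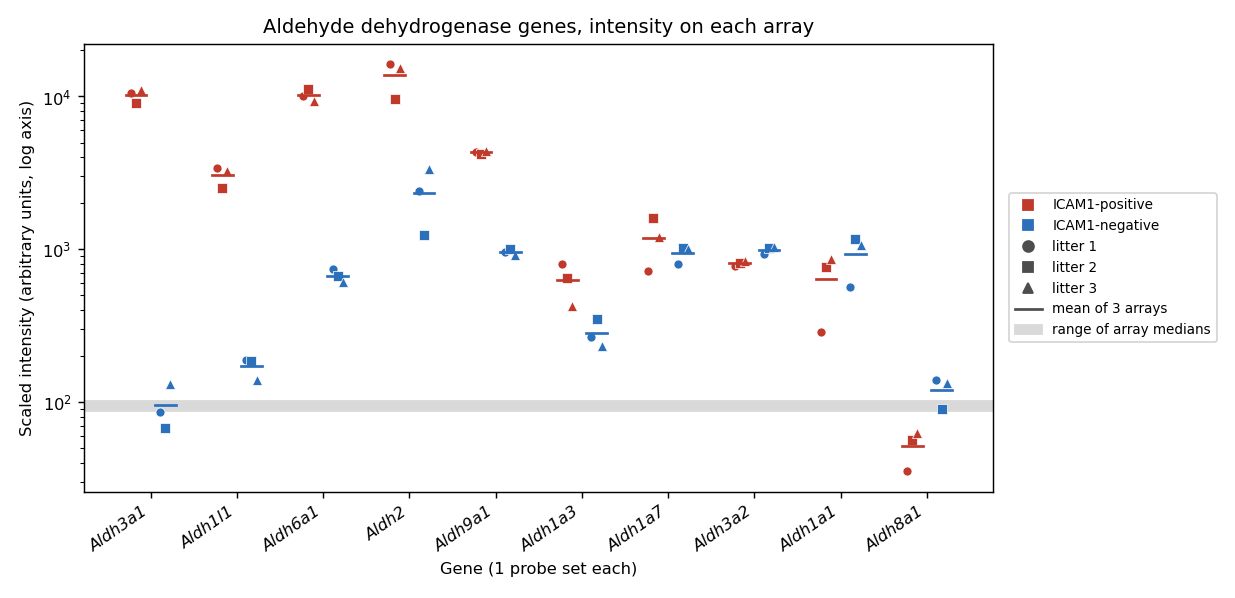
Scaled intensity (log axis) of each of the 10 genes on each array, by its brightest probe set, with ICAM1-positive arrays in red left of ICAM1-negative arrays in blue; symbols are litters, bars are means of 3 arrays and the grey band is the range of array medians. Aldh3a1, Aldh1l1, Aldh6a1, Aldh2 and Aldh9a1 were separated widely between sorts, while Aldh1a7 and Aldh1a1 overlapped.

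Among the enzymes that clear reactive aldehydes, Aldh3a1 and Aldh2 differed most. Aldh3a1, a cytosolic enzyme of aromatic and lipid-derived aldehydes that is also abundant in the mammalian cornea, had intensities of 10571.7, 9052.0 and 11036.2 in ICAM1-positive sorts, against 86.5, 68.1 and 132.5 in ICAM1-negative sorts. The positive arrays were all high and the negative ones all near the array median, 2 of the 3 below it, with no overlap. The difference was 6.79 ± 0.28, or 6.54 when values under the array median were set to it, so its exact size is uncertain. By log2 difference, Aldh3a1 stood at place 42 of 16399 genes from the highest.

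Aldh2, the mitochondrial enzyme that oxidises acetaldehyde, had 16220.7, 9619.3 and 15431.4 in ICAM1-positive sorts, against 2417.8, 1243.8 and 3370.8 in ICAM1-negative sorts on its brightest probe set. The groups did not overlap, and both sorts of litter 2 were the lowest of their group. The difference was 2.63 ± 0.43 with litters as independent arrays and 2.63 ± 0.21 with litter as a block. Without litter 1 the gene no longer passed the threshold (2.57 on the log2 scale).

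The 5 probe sets of Aldh2 pointed the same way and differed in size. Their differences were 2.63 ± 0.43, 3.42 ± 0.25, 3.13 ± 0.26, 1.44 ± 0.43 and 0.94 ± 0.43. The last of these, an x_at probe set that can bind related transcripts, did not pass the threshold. On the 2 probe sets with the smallest differences the ICAM1-positive sort of litter 2 was the highest array, at 1072.9 and 997.0, whereas on the brightest probe set the same array was the lowest ICAM1-positive one.

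Aldh3a2, the fatty aldehyde dehydrogenase of the endoplasmic reticulum, had 779.5, 814.5 and 844.5 in ICAM1-positive sorts, against 939.7, 1018.0 and 1032.9 in ICAM1-negative sorts. The ICAM1-positive arrays were all below the negative ones by a small and even amount, -0.27, -0.32 and -0.29 in the 3 litters. The difference of -0.29 ± 0.16 did not pass the threshold, nor did it under any alternative run.

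Of the chosen genes of the Aldh1a group, Aldh1a3 alone passed the threshold. Aldh1a3, which makes retinoic acid, had 805.0, 653.7 and 423.9 in ICAM1-positive sorts, against 269.4, 352.2 and 234.3 in ICAM1-negative sorts. All ICAM1-positive arrays were above all ICAM1-negative ones, with the sorts of litter 3 closest to each other and a difference of 1.11 ± 0.30. The call ended without litter 1, 2 or 3, and without any of 4 single arrays, ICAM1-negative 1 and 3 and ICAM1-positive 1 and 2. Over all alternatives the difference ran from 0.87 to 1.37. Its other 2 probe sets were dim, with 1.02 ± 0.29 and 0.58 ± 0.49, and came to 0.08 and 0.00 when values under the array median were set to it.

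Aldh1a1, a retinaldehyde dehydrogenase whose activity is used to sort stem cells of other tissues, had 290.5, 764.2 and 872.3 in ICAM1-positive sorts, against 571.1, 1162.1 and 1061.6 in ICAM1-negative sorts. Both sorts of litter 1 were the lowest of their group, so the groups overlapped although the ICAM1-positive sort was the lower one within each litter, by 0.98, 0.60 and 0.28 on the log2 scale. The difference was -0.62 ± 0.51 without a block and -0.62 ± 0.19 with litter as a block, and passed the threshold in neither.

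Aldh1a7, a rodent relative of Aldh1a1, had 722.4, 1609.5 and 1206.0 in ICAM1-positive sorts, against 804.5, 1018.6 and 1009.2 in ICAM1-negative sorts. The groups overlapped, and the sign turned between litters, with -0.16, 0.66 and 0.26. The difference was 0.25 ± 0.33 and came to -0.01 in 1 of 16 alternatives. Aldh1a1 and Aldh1a7 are closely related in sequence, each has 1 probe set here, and binding of one transcript to the other's probes was not tested.

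Among the chosen enzymes of folate, amino acid and carnitine metabolism, 3 were higher and 1 was lower. Aldh1l1, which oxidises formyl-tetrahydrofolate and is widely used as an astrocyte marker in brain, had 3384.2, 2520.4 and 3255.3 in ICAM1-positive sorts, against 189.6, 186.3 and 140.3 in ICAM1-negative sorts. The groups were far apart, and the difference was 4.15 ± 0.22. A dimmer probe set of the gene gave 2.44 ± 0.41, with all ICAM1-negative arrays below the array median and a difference of 0.09 once low intensities were raised.

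Aldh6a1, the mitochondrial methylmalonate semialdehyde dehydrogenase of valine and pyrimidine breakdown, had 10107.4, 11221.3 and 9372.6 in ICAM1-positive sorts, against 739.7, 667.2 and 614.6 in ICAM1-negative sorts. The litters were close to each other, at 3.77, 4.07 and 3.93, and the difference was 3.93 ± 0.17.

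Aldh9a1, which oxidises trimethylaminobutyraldehyde in carnitine synthesis, had 4306.4, 4235.9 and 4383.1 in ICAM1-positive sorts, against 956.8, 999.9 and 921.7 in ICAM1-negative sorts. It varied least of the 10 genes between arrays of a sort, with a pooled SD of 0.0451 on the log2 scale against a median of 0.374 over all probe sets kept. The difference was 2.17 ± 0.15, and 1.86 ± 0.46 on a second probe set on which litter 2 was lowest in both sorts.

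Aldh8a1, an enzyme of the kynurenine pathway of tryptophan breakdown, had 35.5, 57.1 and 63.4 in ICAM1-positive sorts, against 139.9, 90.4 and 133.7 in ICAM1-negative sorts. The ICAM1-positive arrays were all below the array median and all below the ICAM1-negative ones. The difference of -1.24 ± 0.31 is bounded at 1.26-fold lower at least, or -0.34 with low values set to the array median, where the call was lost. The call was also lost with litter as a block, without litter 1, 2 or 3, without any of 3 single arrays (ICAM1-positive 1, ICAM1-negative 1 and 3) and with the probe sets of the gene averaged. A second, dimmer probe set gave -0.54 ± 0.67 with signs that differed between litters.

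**Figure D2:**
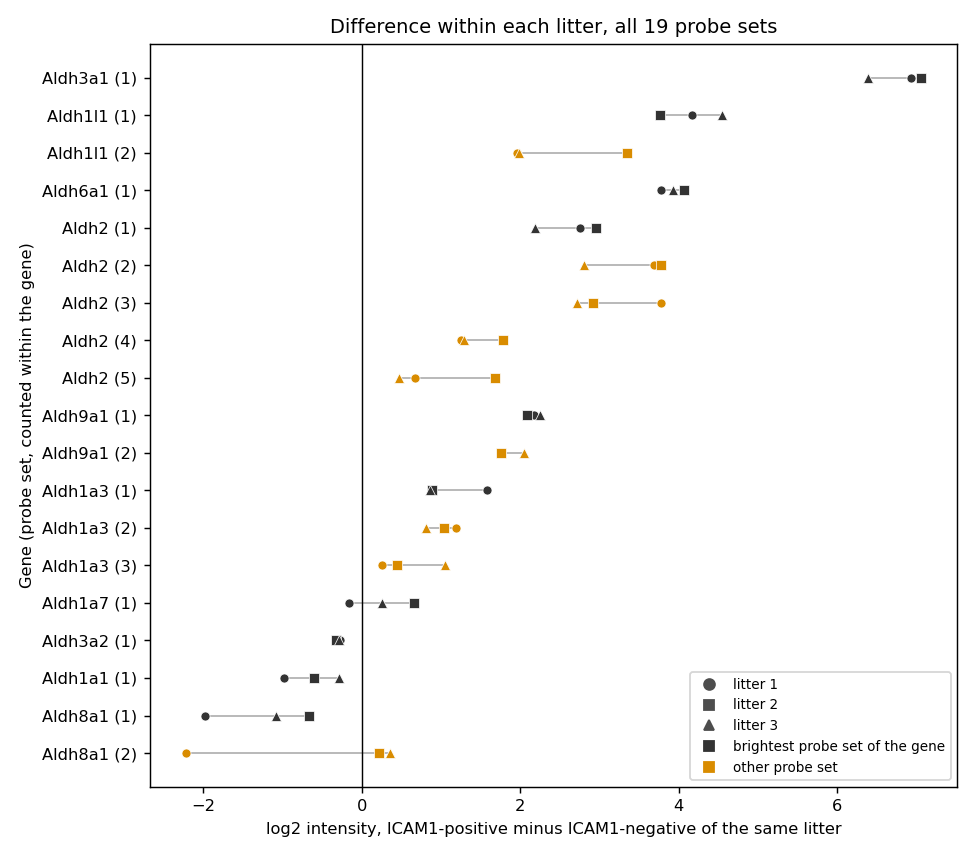
Log2 difference between the ICAM1-positive and the ICAM1-negative sort of the same litter for all 19 probe sets, grouped by gene, with the brightest probe set of each gene in dark and the others in orange; symbols are litters and grey lines span the 3. Aldh6a1 and Aldh9a1 had close litters, Aldh2 ran from 0.47 to 3.78 over its 5 probe sets, and Aldh1a7 crossed 0.

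Genes with the pattern most like that of the extreme members were found by Pearson correlation of log2 intensity over the 6 arrays, among 10370 genes above the median level. For Aldh3a1 these were Ces1d (0.9999), Car12 (0.9998), Pcx (0.9998), Mideas (0.9998) and Rras2 (0.9997). Their own log2 differences were 3.58, 7.19, 1.59, 2.19 and 1.31, so a like pattern did not mean a like size. Such values were common, as 630 genes exceeded 0.99 with Aldh3a1. Aldh3a1 was picked for its difference between the sorts, so a high r was favoured in advance for any gene that differs between them. For Aldh8a1 the nearest were Atp5j (0.9899), Ddx56 (0.9821), Nek2 (0.9811), Rab3ip (0.9784) and Cfap54 (0.9783), and 0 genes exceeded 0.99. Aldh8a1 itself lay around the array median or below it, at 35.5 to 139.9, so little is read from its nearest genes.

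The other 10 measured genes of the family counted 3 higher and 0 lower of 10, where 20.6% of all genes were higher and 20.8% lower. Their median log2 difference was 0.14. Aldh7a1, which acts in lysine breakdown, had 2320.9, 2137.7 and 2387.6 in ICAM1-positive sorts, against 518.9, 531.4 and 635.5 in ICAM1-negative sorts, and rose by 2.03 ± 0.17 (limma adjusted p = 0.000507). Its 2 other probe sets lay below the array median on all arrays, and with all kept probe sets averaged the gene did not pass (0.71, adjusted p = 0.202). Aldh4a1, which acts in proline breakdown, had 678.0, 307.8 and 396.7 in ICAM1-positive sorts, against 199.5, 153.9 and 127.0 in ICAM1-negative sorts (1.47 ± 0.35, adjusted p = 0.0216). That call ended without litter 1 (0.0518), 2 (0.0623) or 3 (0.138) and without the single arrays ICAM1-negative 2 (0.0623) or 3 (0.0685) or ICAM1-positive 3 (0.0543).

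Aldh16a1 had 632.1, 518.1 and 776.1 in ICAM1-positive sorts, against 309.0, 214.4 and 414.4 in ICAM1-negative sorts (1.07 ± 0.30, adjusted p = 0.0392). It lost its call without litter 1 (0.193), 2 (0.074) or 3 (0.0852), without a single array (ICAM1-negative 1 at 0.0952 and 2 at 0.0838, ICAM1-positive 1 at 0.0968, 2 at 0.0526 and 3 at 0.117) and with no filter on low intensity (0.0529). Aldh1l2, the mitochondrial counterpart of Aldh1l1, averaged 134 ± 29.7 in ICAM1-positive and 222 ± 53.2 in ICAM1-negative sorts (SD, n = 3) and did not pass (-0.72 ± 0.28, limma adjusted p = 0.103), but did with litter as a block (adjusted p = 0.0248) and with values under the array median set to it (0.0481). Aldh1l1 and Aldh1l2 thus had estimates of opposite sign.

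The remaining genes of the family did not pass. Aldh18a1, the enzyme of proline synthesis, differed by 0.21 ± 0.19, Aldh5a1, which clears succinic semialdehyde from GABA breakdown, by -0.12 ± 0.18, and Aldh3b1 by -0.22 ± 0.20. Aldh1b1 (-0.54 ± 0.30), Aldh1a2, another retinaldehyde dehydrogenase (0.30 ± 0.36), and Aldh3b2 (0.07 ± 0.38) were near the array median or below it in both sorts. Only Aldh1b1 of these 6 passed in any alternative, without ICAM1-positive array 2 (-0.83, adjusted p = 0.0461).

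**Figure D3:**
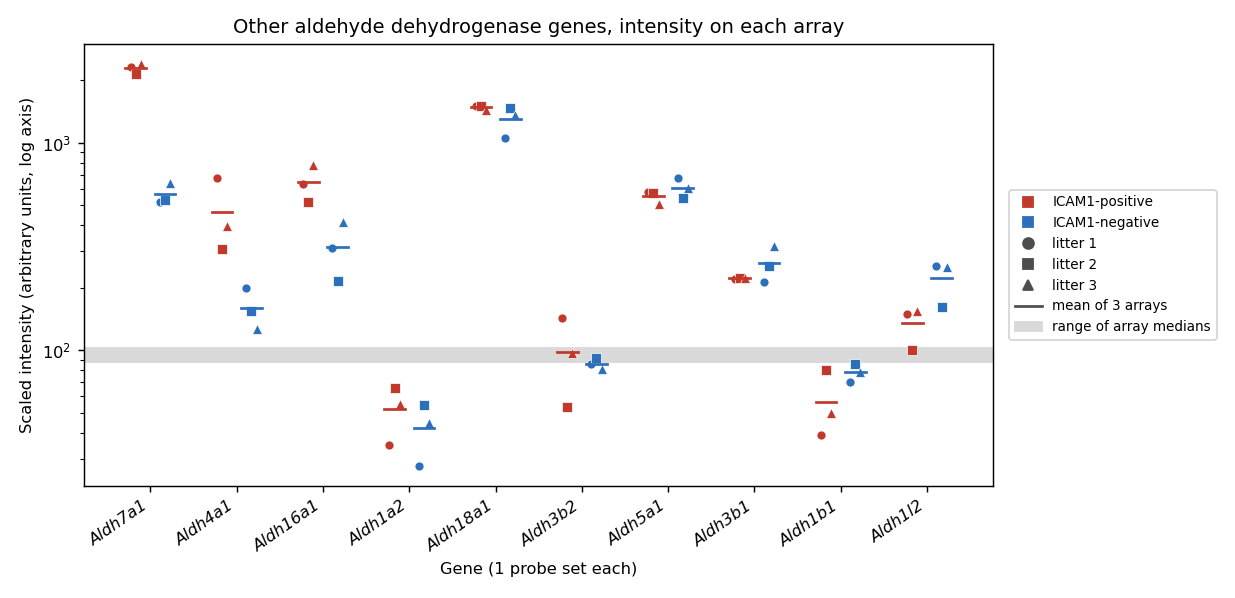
Scaled intensity (log axis) of the 10 other aldehyde dehydrogenase genes on each array, drawn as for the chosen genes, with ICAM1-positive arrays in red left of ICAM1-negative arrays in blue. Aldh7a1 stood at 2137.7 to 2387.6 in ICAM1-positive and 518.9 to 635.5 in ICAM1-negative sorts, and Aldh1a2 and Aldh1b1 lay below the grey band of array medians.

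Genes that share substrates with these enzymes were compared in the same fit. Over all genes 20.6% lay past the threshold as higher and 20.8% as lower. These shares stand beside each list count below, and nothing is read from a count near them. The lists, with that of the other aldehyde dehydrogenases, were chosen with earlier results of these data known. Their counts and adjusted p-values are therefore a description, and a count far from the shares is no independent support. Among alcohol dehydrogenases, carbonyl reductases and aldehyde oxidases, 10 of 17 were higher and 0 lower, with a median of 2.10. Adh1, an alcohol and retinol dehydrogenase, had 11589.3, 9344.3 and 10149.8 in ICAM1-positive sorts, against 247.1, 262.7 and 239.4 in ICAM1-negative sorts (5.37 ± 0.17, adjusted p = 0.000124). The related Adh7 was at least 24.1-fold higher (adjusted p = 0.000241), the aldehyde oxidase gene Aox3 at least 14.2-fold higher (adjusted p = 0.000836), and Xdh, the xanthine dehydrogenase of the same enzyme family, rose by 5.81 ± 0.20, or 5.77 with low values set to the array median (adjusted p = 0.000124).

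Of 18 genes of retinoid metabolism 6 were higher and 2 lower, with a median of 0.43. Dhrs3, which turns retinaldehyde back to retinol, rose by 1.68 ± 0.18 (adjusted p = 0.00112) and Rdh12, a retinol dehydrogenase, was at least 3.2-fold higher (adjusted p = 0.000534). Crabp1, a retinoic acid binding protein, fell to 295 ± 88.9 in ICAM1-positive sorts, against 3872 ± 263 in ICAM1-negative sorts (SD, n = 3; limma adjusted p = 0.000346). Cyp26a1, which degrades retinoic acid, was at least 2.59-fold higher (adjusted p = 0.0182). It lost its call with litter as a block (0.0609), without litter 1 (0.0828) or 2 (0.128) and without the single arrays ICAM1-negative 2 (0.0576) or ICAM1-positive 1 (0.0588). The list counted 5 or fewer calls without litter 1 (3) or 3 (5), or without a single array among ICAM1-negative 2 (4) and 3 (5) and ICAM1-positive 1 (4) and 3 (5).

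Of 19 folate genes 4 were higher and 4 lower, with a median of 0.11, where 41.4% of all genes lay past the threshold. Mthfd1, the cytosolic enzyme that makes the formyl-tetrahydrofolate that Aldh1l1 oxidises, rose by 2.27 ± 0.17 (adjusted p = 0.000337). Its mitochondrial relative Mthfd2 fell by 2.11 ± 0.23 (adjusted p = 0.00112), and Gldc, of the mitochondrial glycine cleavage system, fell to 90.4 ± 49 in ICAM1-positive sorts, against 2364 ± 233 in ICAM1-negative sorts (-4.91 ± 0.52; limma adjusted p = 0.00105). Slc46a1, a folate transporter gene, was at least 2.82-fold higher (adjusted p = 0.00981), but not without litter 2 (0.0618) or 3 (0.0724). Without litter 3 the list had 5 calls.

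Of 23 genes of branched-chain amino acid and propionate breakdown, the pathway of Aldh6a1, 11 were higher and 1 lower, with a median of 0.77. Ivd, of leucine breakdown, rose by 2.03 ± 0.21 (adjusted p = 0.00089), Dbt, a subunit of the branched-chain keto acid dehydrogenase, by 2.02 ± 0.19 (adjusted p = 0.000663), and Acadsb, of isoleucine breakdown, by 2.34 ± 0.36 (adjusted p = 0.00399). Abat, the GABA transaminase, was at least 7.11-fold higher on its brightest probe set (adjusted p = 0.000346). With its probe sets averaged the log2 difference of Abat was 1.94, below the 2.83 of that bound. The gene that fell was Auh, a hydratase of leucine breakdown (-0.93 ± 0.16, adjusted p = 0.00686). Its probe sets disagreed: averaged they gave -0.27 (adjusted p = 0.464), with x, s and a probe sets left out the gene stood at 0.16 (0.615), and the call also ended without litter 1 (0.0753) or 3 (0.0911).

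Of 11 kynurenine pathway genes 4 were higher and 0 lower, with a median of 0.31, and 7 were below the array median on every ICAM1-positive array. Kyat3, a kynurenine aminotransferase, rose by 1.65 ± 0.34 (adjusted p = 0.0132), but not without litter 1 (0.11) or 3 (0.106). With low intensities raised 1 call was left in the list. There were 0 without litter 1, 1 each without litter 2, litter 3 or the arrays ICAM1-negative 2 or ICAM1-positive 1, and 2 without array ICAM1-positive 3.

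Of 16 genes of sphingolipid breakdown, fatty aldehydes and carnitine, 5 were higher and 2 lower, with a median of 0.02. Sgpl1, the lyase that releases a fatty aldehyde for Aldh3a2 to oxidise, fell to 1562 ± 262 in ICAM1-positive sorts, against 8016 ± 825 in ICAM1-negative sorts (SD, n = 3; -2.37 ± 0.20, limma adjusted p = 0.0005). Sgpp2, a sphingosine phosphate phosphatase, fell by 3.96 ± 0.49 (adjusted p = 0.00183). Slc22a5, the carnitine transporter gene, rose by 3.53 ± 0.16 (adjusted p = 0.000149), and the ceramidase gene Asah2 was at least 4.24-fold higher on its brightest probe set (adjusted p = 0.000217), with a log2 difference of 1.96 when its probe sets were averaged.

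Of 8 aryl hydrocarbon receptor genes, a set known in liver to include Aldh3a1 among its targets, 2 were higher and 0 lower, with a median of -0.49. Tiparp, a target of that receptor, rose by 1.93 ± 0.24 (adjusted p = 0.00182) and Arnt, its partner, by 0.64 ± 0.18 (adjusted p = 0.0423). Arnt passed without ICAM1-positive array 2 but not without any other single array (0.0863 to 0.126) or any litter (0.077 to 0.226), nor with its probe sets averaged (0.17, adjusted p = 0.374) or with no filter on low intensity (0.061). The list had 1 call without litter 1 or 3 or any of the arrays ICAM1-negative 1, ICAM1-positive 1 and ICAM1-positive 3. Cyp1a1, a classical target, averaged 29.9 ± 21 in ICAM1-positive and 37.8 ± 22.7 in ICAM1-negative sorts (SD, n = 3), below the array median in both, and Nqo1, a quinone reductase, was lower in each litter (-0.73, -0.43 and -0.62) but did not pass (-0.59 ± 0.22, limma adjusted p = 0.0888). It passed as lower with litter as a block (adjusted p = 0.0484), with low intensities raised (0.0308), with a variance trend (0.0318) and without array ICAM1-negative 2 (0.0465).

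**Figure D4:**
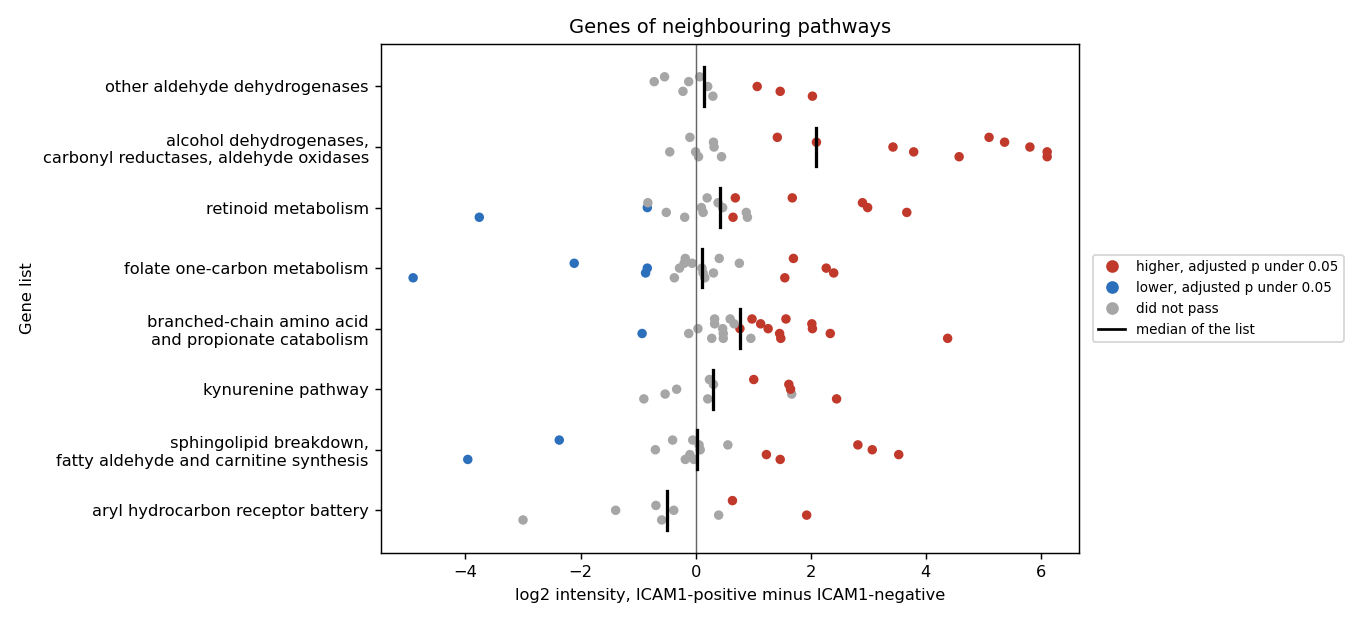
Log2 difference, ICAM1-positive minus ICAM1-negative, of every measured gene in 8 lists (1 row each), coloured by whether it passed as higher (red), lower (blue) or not (grey), with the median of each list as a black bar. The list of alcohol dehydrogenases, carbonyl reductases and aldehyde oxidases had its median at 2.10, and the folate and sphingolipid lists, with medians of 0.11 and 0.02, held genes on both sides.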

How the data were processed

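The authors deposited 1 table of linear intensities for 45101 probe sets on 6 arrays. GCRMA is named in the design text and in the submitters' processing notes and would give log2 values with near-equal quantiles. The deposited intensities are linear instead, and each array's 2% trimmed mean was 500. They were treated as scaled linear intensities with no detection calls. The program that made them is not given in the sources used here, and precision is limited by having 3 arrays a sort.

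Intensities were taken to log2. After removal of 64 control probe sets, the 38694 probe sets above log2 4 (intensity 16) on at least 3 arrays were kept. Symbols came from the platform annotation, and a gene was represented by its brightest kept probe set with a single symbol. Sorts were compared with limma 3.58.1 in R 4.3.3 (lmFit, eBayes, no block), with Benjamini-Hochberg adjustment over all probe sets kept and a threshold of 0.05, and the fit was tested on simulated data. Where the dimmer sort was below the array median on all its arrays, both sorts' low values were set to that median and the fold was written as a minimum, a bound without an error chosen after the data were seen. Litter numbers pair the sorts, per the series text, and deviations from the sort mean correlated at 0.127, 0.199 and 0.0812 within litters and at -0.15 to 0.033 between them.

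The genes, the 8 pathway lists and the marker lists were chosen with earlier results of these data known. All measured family members were named, and of each other list up to 4 genes (2 for markers) past the threshold with the largest difference, separate groups and a mean above 200. Auh, Nqo1 and Cyp1a1 were named after their values were seen. Alternatives were a litter block, quantile normalization, no filter, low intensities raised, a variance trend, averaged probe sets, leaving out x, s and a probe sets, and leaving out each array or litter.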

Additional observations from a re-analysis of the deposited data

How the results depend on the processing

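With litter as a replicate block, 6 of the 10 chosen genes were higher and 0 lower, and Aldh1l2 and Nqo1 gained a call and Cyp26a1 lost its call among the other genes named. Leaving out single arrays or litters gave between 7442 and 11681 probe sets past the threshold, against 13512 with all arrays. The chosen genes past the threshold then numbered 4 to 7 (against 7), the other aldehyde dehydrogenases 1 to 3 (against 3), retinoid genes 3 to 8 (against 8), folate genes 5 to 9 (against 8), kynurenine genes 0 to 3 (against 4) and aryl hydrocarbon receptor genes 1 to 3 (against 2). With values under the array median set to it, 1 kynurenine gene and 4 aryl hydrocarbon receptor genes passed, and Aldh1l2 and Nqo1 gained a call, Nqo1 also with a variance trend. The aryl hydrocarbon receptor count was also 4 with a variance trend and 1 with averaged probe sets or no filter. Averaging probe sets moved Aldh1l1 to 3.29 and Aldh9a1 to 2.01 and turned Aldh18a1 to -0.11, and leaving out x, s and a probe sets moved Aldh1l1 to 2.44 and left Aldh9a1 with no probe set. Aldh3b2, which did not pass, changed sign without ICAM1-positive array 1 (-0.26), litter 1 or litter 3 (-0.03) and ran from -0.27 to 0.50 over left-out arrays and litters. Auh turned to 0.16 without x, s and a probe sets, and Cyp1a1, near background, ran from -0.93 to 0.45 over left-out arrays and litters. The direction of 9 of the 10 chosen genes held in every alternative run, with Aldh1a7 the exception. These runs reuse the same 6 arrays and the genes were chosen on this contrast, so a held direction is no independent support. Aldh3a2 and Aldh1a1, among the 9, passed the threshold in no run. The cause of the changes between runs was not tested, except that leaving out arrays means fewer samples. Low signal limits Aldh3a1, Aldh1a3 and Aldh8a1, whose dim probe sets or sorts lie near the array median. The dimmer probe set of Aldh1l1 and some of those of Aldh2 also had ICAM1-negative arrays below that median.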
